A study of Mus musculus with 12 samples.

Results

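Ern1, Xbp1, Atf6, Atf6b, Mbtps1, Mbtps2, Creb3, Creb3l1, Creb3l2 and Creb3l3 encode the sensors, proteases and transcription factors of the branches of the unfolded protein response that do not run through the kinase PERK and ATF4. These genes and the lists of related genes below were chosen by name, with earlier results of these data known. Each of the 10 symbols stood at 1 locus, so the set holds 10 of the 27109 loci in the authors' deposited table. The study sequenced poly(A) RNA from livers of C57BL/6 mice with or without the transcription factor Atf4, at rest and during endoplasmic reticulum (ER) stress. ER stress was caused with tunicamycin, an antibiotic that blocks N-linked glycosylation so that unfolded glycoproteins build up. The 4 groups of 3 libraries were wild-type mice given 0.3% DMSO, wild-type mice given 1 mg/kg tunicamycin, mice with a liver-specific Atf4 knockout (LsATF4-KO) given 0.3% DMSO, and knockout mice given 1 mg/kg tunicamycin. All mice received the injection into the peritoneum, and livers were taken 6 h later. The sources used here give neither the age and sex of the mice nor the promoter that drives the deletion and the exons deleted. Nothing in the labels says whether each library came from a separate animal. A liver-specific knockout of this kind is usually made in hepatocytes, so that other cells of the organ may keep Atf4.

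IRE1α, the product of Ern1, is a kinase and ribonuclease in the ER membrane that cuts the Xbp1 mRNA, and the ends are rejoined to give an mRNA for the active transcription factor XBP1s. It also cuts other mRNAs at the ER, a process called regulated IRE1-dependent decay (RIDD). ATF6 and its relatives of the CREB3 family are transcription factors anchored in the ER membrane. Under stress they travel to the Golgi, where the proteases encoded by Mbtps1 (site-1 protease) and Mbtps2 (site-2 protease) release the part that enters the nucleus. In liver this system serves a cell type that secretes large amounts of protein, and CREB3L3 (CREBH) is known there as a regulator of acute-phase, iron and lipid genes.

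IRE1α acts on Xbp1 by cutting out a short stretch within an exon, which a total expression value per gene does not separate from the uncut form. The stretch is shown because the Xbp1 value below counts both forms together. It lies in exon 4 of 5 of an Xbp1 transcript, in coding sequence, at chr11:5524255-5524328 on the plus strand of GRCm38, with the 26 bases between the cut sites (5524279 to 5524304) in capitals.
Xbp1 cut region: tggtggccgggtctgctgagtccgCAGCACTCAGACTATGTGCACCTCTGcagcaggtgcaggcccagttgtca
With these 26 bases the reading frame of the transcript runs 267 codons, and without them 371 codons. The cut sites were found as a pair of CNGCNG matches 26 bases apart. Of 2 such pairs, the one whose removal lengthens the reading frame is shown. Loci of the expression table are given in the mouse build mm9 and sequences in GRCm38, so coordinates from one cannot be set against the other.

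Values in the authors' deposited table are FPKM, fragment counts scaled to transcript length and sequencing depth, with 1 value per locus and group. Below, a pair of values for a genotype gives DMSO first and tunicamycin second. The 3 libraries behind a value are pooled, so the spread between libraries and the depth are unknown, and neither an SD nor a value without 1 library can be given. A locus was called higher or lower where the authors' deposited Cuffdiff q-value was under 0.05 and the test had run. SE and 95% intervals quoted below are approximate and were derived from the deposited test statistic and p-values. Loci at or above 1 FPKM numbered 12135 to 12484 per group. Per the labels, lane 5 held the 3 libraries of the knockout after DMSO and lane 4 the other 9, so wherever that group is compared, its lane and its label cannot be told apart. The locus that holds Atf4, merged in the assembly with Cacna1i, read 46.9 FPKM after DMSO and 356 after tunicamycin in wild type, and 22.8 and 114 in the knockout. It was lower in the knockout with tunicamycin (log2 -1.64) and not called with DMSO (log2 -1.04, q 0.270) in the authors' deposited table. Hepatocyte markers summed to 8670 and 3936 FPKM in wild type and 7906 and 3604 in the knockout, with Alb listed at 0 in every group under a status for too many fragments. Markers of other tissues had by far their highest summed FPKM in the knockout with tunicamycin. Skeletal muscle markers summed to 0.371 and 3.13 in wild type and 0.592 and 221 in the knockout. Adrenal cortex markers summed to 5.27 and 22.3 in wild type and 1.85 and 844 in the knockout, and fat markers to 16.8 and 24.5 and to 25.8 and 236. In bulk tissue, fewer cells of a type and less RNA per cell cannot be told apart.

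With tunicamycin 6 of the 10 genes were higher in wild-type liver and 5 in knockout liver, and none was lower. In wild type the 6 were Creb3l2, Atf6, Ern1, Atf6b, Mbtps2 and Creb3. The same genes without Creb3 were called in the knockout. Of all tested loci, 18.1% were called higher and 19% lower in wild type by the authors' deposited table. For the knockout 18.1% were called higher and 14.8% lower, again by the authors' deposited table. The median log2 change of the 10 genes was 0.98 in wild type and 0.94 in the knockout, against -0.02 and 0.01 over all loci tested. Both transcription factors with the highest level at rest, Creb3l3 and Xbp1, were not among the genes called. The summed FPKM of the 10 genes was 447 after DMSO and 646 after tunicamycin in wild type, and 370 and 552 in the knockout.

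**Figure D1:**
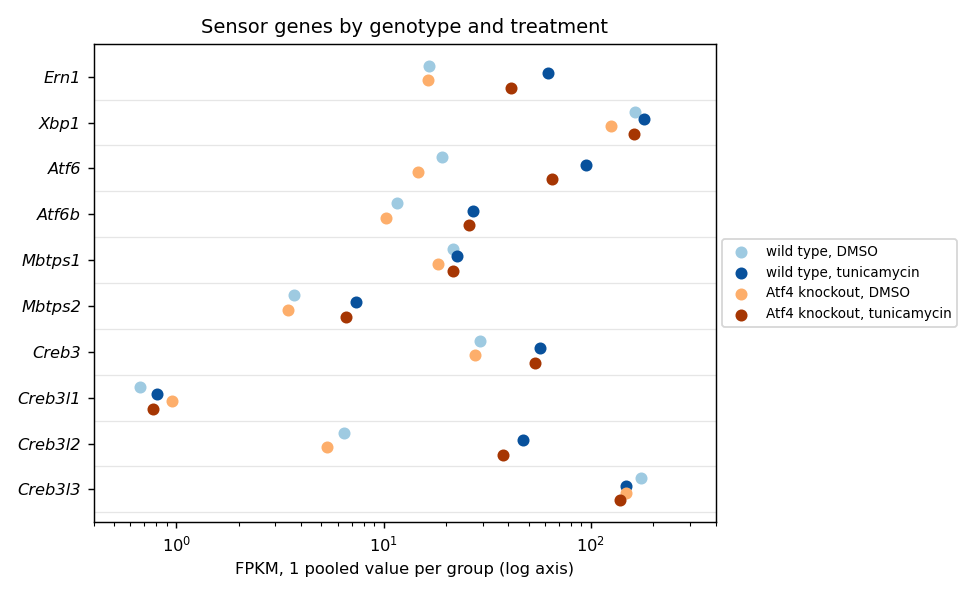
Pooled FPKM of the 10 genes on a log axis, with 1 point per group (light blue, wild type with DMSO; dark blue, wild type with tunicamycin; orange, knockout with DMSO; brown, knockout with tunicamycin). Creb3l2 and Atf6 show the widest gaps between DMSO and tunicamycin in both genotypes (6.46 to 47.1 and 19.0 to 94.7 FPKM in wild type), while Xbp1, Mbtps1, Creb3l1 and Creb3l3 keep close values.

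In the IRE1 branch the sensor mRNA rose and the total Xbp1 mRNA was not called. Ern1 (chr11:106252196-106349132, mm9) read 16.5 FPKM after DMSO and 61.8 after tunicamycin in wild type, and 16.4 and 41.0 in the knockout. The tunicamycin values of both genotypes lie above both DMSO values, which are nearly equal. Ern1 in the authors' deposited table was 3.74-fold higher with tunicamycin in wild type (log2 1.90, derived SE 0.22, q 0.000396) and 2.50-fold higher in the knockout (log2 1.32, derived SE 0.22, q 0.000396).

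Xbp1 (chr11:5385926-5425997, mm9) was among the most abundant of the set, at 163 FPKM after DMSO and 180 after tunicamycin in wild type, and 125 and 162 in the knockout. The 4 values lie close together. By the authors' deposited table the log2 change with tunicamycin was 0.14 in wild type (95% interval -0.26 to 0.54, q 0.717) and 0.37 in the knockout (-0.04 to 0.78, q 0.208), and neither was called. The intervals do not reach a doubling of total Xbp1 mRNA. Whether the share of mRNA without the 26 bases changed cannot be read from these values. The mapped locus spans 40072 bases against 5353 for the RefSeq gene, and no other gene name is attached to it.

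Of 8 partners of IRE1, 7 were tested, and Ern2, the paralog of gut epithelium, was at or near 0 FPKM and not tested. Called higher with tunicamycin in both genotypes were 4 of the 7, with a median log2 change of 0.74 in wild type and 0.65 in the knockout. The share of all tested loci called higher was 18.1% in each genotype. Traf2, the adaptor between IRE1 and JNK signalling, read 4.26 FPKM after DMSO and 7.10 after tunicamycin in wild type, and 4.33 and 6.81 in the knockout. Map3k5 (ASK1), the kinase that this adaptor engages, read 8.62 and 22.6 FPKM in wild type and 11.3 and 20.2 in the knockout. Ddx1, a helicase of the tRNA ligase complex that rejoins cut Xbp1, rose by 0.79 on the log2 scale in wild type and by 0.66 in the knockout in the authors' deposited table. Pdia6, a disulfide isomerase known to act on IRE1, had the widest step, from 190 to 933 FPKM in wild type and from 210 to 850 in the knockout. The ligase itself, Rtcb, was not called (log2 0.26 in wild type and 0.29 in the knockout in the authors' deposited table). No partner was called between genotypes in either treatment.

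Most genes known to depend on XBP1s rose, while total Xbp1 did not pass the test. By the authors' deposited table, 18 of 20 were higher with tunicamycin in wild type and 17 of 20 in the knockout, and none was lower. Their median log2 change was 1.74 in wild type and 1.59 in the knockout. Among all tested loci 18.1% were called higher in each genotype, with 19% lower in wild type and 14.8% in the knockout. Dnajb9 (ERdj4), a co-chaperone of the ER lumen, read 49.9 FPKM after DMSO and 605 after tunicamycin in wild type, and 27.0 and 473 in the knockout. The co-chaperone Dnajc3 read 73.9 and 652 FPKM in wild type and 75.1 and 480 in the knockout. Edem1, a lectin of ER-associated degradation whose locus was merged with Arl8b, read 77.6 and 279 FPKM in wild type and 68.1 and 202 in the knockout. Both genotypes thus had all 3 genes well above their DMSO values. Transport and translocation genes ranged more widely, from Ssr4 (log2 0.32 in wild type, not called) to Srprb in the authors' deposited table. The COPII coat subunit Sec24d changed by 2.18 on the log2 scale in wild type and 2.20 in the knockout, both called in the authors' deposited table. Srprb, a subunit of the receptor for signal recognition particles, changed by 2.29 and 2.39, also called in the authors' deposited table. Ssr3, a subunit of the translocon-associated complex, went from 114 to 467 FPKM in wild type and from 102 to 405 in the knockout. Ssr4 and Dnajb11 were called in neither genotype, and Sec61g was called in wild type (log2 1.14, q 0.0410) and not in the knockout (log2 1.00, q 0.0990) in the authors' deposited table. The difference between both Sec61g responses was -0.14 (derived SE 0.61, adjusted p 1.00). Dnajb11 read 57.5 and 445 FPKM in wild type and 65.7 and 370 in the knockout, a wide step whose deposited test statistic was small (log2 2.95 and q 0.245 in wild type in the authors' deposited table).

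Among known substrates of RIDD, Bloc1s1 and Cyp1a2 fell in both genotypes. Of 9 tested, 4 were lower and none higher with tunicamycin in wild type, and 3 were lower and 1 higher in the knockout, by the authors' deposited table. The shares over all loci were 19% lower and 18.1% higher in wild type, and 14.8% lower and 18.1% higher in the knockout, so the 1 called higher is no more than that background. The median log2 change of the 9 was -0.63 in wild type and -0.29 in the knockout. Bloc1s1, the substrate used most often as a readout of RIDD and a subunit of the BLOC-1 complex, read 92.2 FPKM after DMSO and 15.3 after tunicamycin in wild type, and 69.1 and 25.1 in the knockout. Its log2 change was -2.59 in wild type (derived SE 0.26) and -1.46 in the knockout (derived SE 0.24), both called lower in the authors' deposited table. The fall was smaller in the knockout by 1.13 on the log2 scale (derived SE 0.36), and this difference did not pass the adjustment over all loci (adjusted p 0.120). Cyp1a2, a drug-metabolising enzyme, read 452 and 211 FPKM in wild type and 433 and 181 in the knockout. It was called lower with tunicamycin in both genotypes in the authors' deposited table. Hepatocyte markers summed to 8670 and 3936 FPKM in wild type and 7906 and 3604 in the knockout. Of these 5 markers 1 was called lower with tunicamycin in wild type and 2 in the knockout, Ttr in both. Whether the fall of Cyp1a2 is separate from that of the hepatocyte markers was not tested. Hgsnat, a lysosomal acetyltransferase, was called lower in wild type (log2 -0.75) and not in the knockout (log2 -0.25, q 0.427) in the authors' deposited table, and its difference of responses had an adjusted p of 1.00. Scara3, Pdgfrb and Cyp2e1 were not called with tunicamycin in either genotype, although the liver enzyme Cyp2e1 had log2 values of -0.63 and -0.70 in the authors' deposited table.

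Sparc and Col6a1, matrix genes of mesenchymal cells, were the 2 RIDD substrates called higher in the knockout, against 3.73% of all loci called higher under tunicamycin. Sparc read 33.5 FPKM after DMSO and 41.8 after tunicamycin in wild type, and 35.5 and 78.5 in the knockout. Under tunicamycin Sparc was higher in the knockout by 0.91 and Col6a1 by 1.00 on the log2 scale, both called in the authors' deposited table. Col6a1 was also higher in the knockout with DMSO (log2 0.66, q 0.0269 in the authors' deposited table), a call that ended when q was computed within that comparison. Stellate cell and fibroblast markers summed to 144 and 140 FPKM in wild type and 156 and 139 in the knockout, with 3 of 6 called higher in the knockout with DMSO and none with tunicamycin. Skeletal muscle markers were called higher in the knockout with tunicamycin in 5 of 5 genes, adrenal cortex markers in 3 of 4 and fat markers in 2 of 4. The part of these tissues in the values of Sparc and Col6a1 was not tested.

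**Figure D2:**
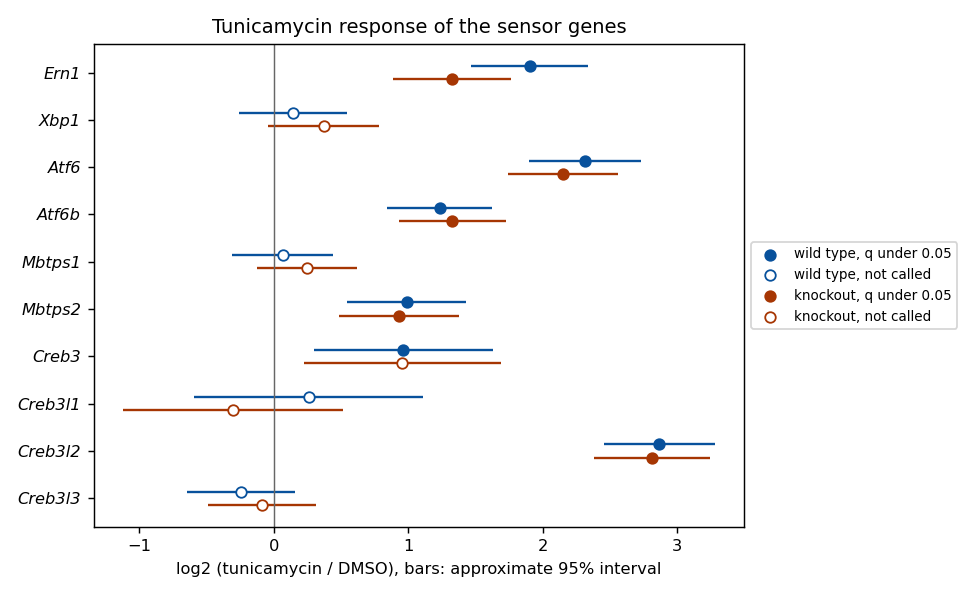
Log2 change with tunicamycin over DMSO in wild type (blue) and knockout (brown) for each gene, with bars for approximate 95% intervals derived from the deposited test, and filled points for calls. Creb3l2 stands highest at 2.87 and 2.81, and the bars of both genotypes overlap for every gene.

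In the ATF6 branch both sensors rose in both genotypes. Atf6 (chr1:172634587-172797960, mm9) encodes ATF6α, the main ATF6 sensor. It read 19.0 FPKM after DMSO and 94.7 after tunicamycin in wild type, and 14.6 and 64.9 in the knockout. Both tunicamycin values are far above both DMSO values. By the authors' deposited table this was 4.98-fold in wild type (log2 2.32, derived SE 0.21, q 0.000396) and 4.44-fold in the knockout (log2 2.15, derived SE 0.21, q 0.000396).

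Atf6b (chr17:34784090-34792019, mm9) encodes ATF6β, a related sensor with weaker activity as an activator. It read 11.5 and 27.1 FPKM in wild type with DMSO and tunicamycin, and 10.3 and 25.9 in the knockout. The step was much alike in both genotypes and smaller than that of Atf6. The authors' deposited table gives 2.35-fold in wild type (log2 1.23, derived SE 0.20, q 0.000396) and 2.51-fold in the knockout (log2 1.33, derived SE 0.20, q 0.000396).

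The proteases that release ATF6 and the CREB3 family gave different results in the test. Mbtps1 (chr8:122032051-122082661, mm9) read 21.6 and 22.5 FPKM in wild type with DMSO and tunicamycin, and 18.3 and 21.7 in the knockout. Its log2 change in the authors' deposited table was 0.06 in wild type (95% interval -0.31 to 0.44) and 0.25 in the knockout (-0.13 to 0.62), and neither was called. Mbtps2 lay in a locus merged with Yy2 (chrX:153985753-154036647, mm9), and Yy2 is a gene that lies within Mbtps2. The merged locus read 3.71 and 7.37 FPKM in wild type with DMSO and tunicamycin, and 3.46 and 6.59 in the knockout, so both tunicamycin values lie above both DMSO values. By the authors' deposited table it was 1.99-fold higher with tunicamycin in wild type (log2 0.99, derived SE 0.23, q 0.000396) and 1.90-fold higher in the knockout (log2 0.93, derived SE 0.23, q 0.00171). What Yy2 adds to this value cannot be told apart from Mbtps2.

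Genes listed as targets of ATF6 had the widest steps among the lists. Each gene was placed in a single list by name, and which branch raised a gene was not tested. All 10 that could be tested with tunicamycin were called higher in both genotypes in the authors' deposited table. Their median log2 change was 4.29 in wild type and 4.13 in the knockout. Across all tested loci 18.1% were called higher in each genotype. Derl3, a component of ER-associated degradation, read 2.74 FPKM after DMSO and 737 after tunicamycin in wild type, and 3.04 and 461 in the knockout. Creld2, an ER protein with disulfide isomerase activity, read 35.6 and 2572 FPKM in wild type and 44.3 and 1954 in the knockout. These are the widest steps of any gene in the lists. Syvn1, the ubiquitin ligase HRD1, read 33.3 and 796 FPKM in wild type and 33.5 and 642 in the knockout. Its partner Sel1l read 34.6 and 542 FPKM in wild type and 33.1 and 353 in the knockout. These proteins form the core of the degradation complex, and both genes had DMSO values that were nearly equal between genotypes. The disulfide isomerase Pdia4 read 104 and 2372 FPKM in wild type and 101 and 1818 in the knockout. The co-chaperone Sdf2l1 read 29.0 and 662 FPKM in wild type and 33.1 and 613 in the knockout. Herpud1, a scaffold of ER-associated degradation, read 247 and 1978 FPKM in wild type and 196 and 1438 in the knockout. In each of these genes the knockout value with tunicamycin was below that of wild type as deposited, but none was called between genotypes. For Sdf2l1 (log2 -0.11 in the authors' deposited table) this sign turned with scaling to summed FPKM, which moved every locus by 0.14. Hspa5 (BiP) and Hsp90b1 (GRP94), chaperones often used to read out this branch, were tested only between genotypes with DMSO, at 409 and 398 FPKM in wild type and 329 and 452 in the knockout. In both tunicamycin groups they are listed at 0 with a status that marks too many fragments to be estimated, so no fold is given.

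The ER stress response element (ERSE), to which ATF6 binds together with the factor NF-Y, is shown because it stands in the promoters of several ATF6 targets that rose with tunicamycin or are among its classic targets. It was searched as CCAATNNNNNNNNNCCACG on both strands of the 300 bases from 250 before to 50 after each gene start in RefSeq (GRCm38.p6). A promoter entry matched 10 of the 12 ATF6 targets, Hspa5 and Hsp90b1 included, and 17 of the 20 XBP1 targets. The ERSE was found at 6 of these 10 ATF6 targets, 1 of these 17 XBP1 targets and 37 of 27025 promoters in all (0.137%). The matches are given 5′ to 3′ on the strand of the match, with the fixed bases in capitals.
Hspa5: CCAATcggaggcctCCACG
Syvn1: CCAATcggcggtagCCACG
Dnajc3: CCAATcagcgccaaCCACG
Creld2: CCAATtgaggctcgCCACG
Derl3: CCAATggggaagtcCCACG
Calr: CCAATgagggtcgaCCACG
Hsp90b1: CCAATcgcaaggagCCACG
Hsp90b1, opposite strand: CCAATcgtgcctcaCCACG
The Hspa5 match lies at chr2:34772025-34772043, 65 bases upstream of the gene start, and the Syvn1 match at chr19:6046532-6046550, 44 bases upstream. The Dnajc3 match lies at chr14:118937827-118937845. Matches on the strand opposite to the gene lie at chr15:88819520-88819538 for Creld2, chr10:75893242-75893260 for Derl3 and chr8:84847075-84847093 for Calr. The Hsp90b1 matches lie at chr10:86705638-86705656 and, opposite to the gene, at chr10:86705533-86705551. A promoter entry matched 8 of the 10 sensor genes by symbol, all but Atf6 and Creb3l1, and none of the 8 holds an ERSE. TGACGTGG, the unfolded protein response element, was found in none of the 8 and in 0.714% of all promoters. Among targets with an entry it was found at 1 of the 17 XBP1 targets, Sec24d, and at 0 of the 10 ATF6 targets. TGATGNAAN, the element that ATF4 shares with C/EBP factors, was found in none of the 8 and in 4.5% of all promoters. It was also found at 1 of the 10 ATF6 targets with an entry, Herpud1, and at 0 of the 17 XBP1 targets. No match says only that these letters are not in that window.

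**Figure D3:**
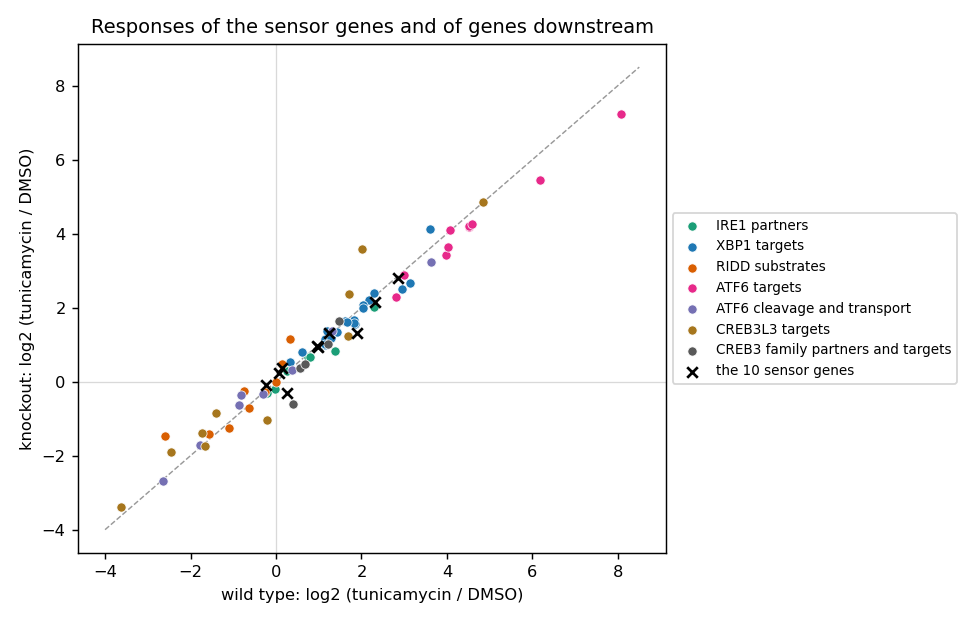
Log2 change with tunicamycin in wild type (horizontal) against knockout (vertical) for the sensor genes (crosses) and the genes of the lists (colours), with a dashed line of equal change. ATF6 targets lie farthest to the upper right, up to 8.07 in wild type for Derl3, and Pck1 among CREB3L3 targets lies lowest at -3.63.

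Genes that carry, hold or share the cleavage machinery of ATF6 held calls in both directions. Of 10, 9 were tested, and Thbs4, near 0 FPKM, was not. In wild type 2 were higher and 4 lower with tunicamycin, and in the knockout 2 were higher and 3 lower, by the authors' deposited table. Over all loci 18.1% were higher and 19% lower in wild type, and 18.1% and 14.8% in the knockout, so the share called higher is near that of all loci. The median log2 change was -0.31 in wild type and -0.32 in the knockout. Wfs1, a membrane protein known to restrain ATF6, read 4.54 FPKM after DMSO and 56.2 after tunicamycin in wild type, and 4.39 and 41.1 in the knockout. Both genes of the sterol-regulated factors, which are cleaved by the same proteases, fell. Srebf1, the gene of a lipogenic factor cleaved by both proteases, read 77.4 and 12.3 FPKM in wild type and 98.5 and 15.2 in the knockout. Srebf2, its counterpart for cholesterol synthesis, fell by 0.86 on the log2 scale in wild type and by 0.62 in the knockout in the authors' deposited table. Their retention factor Insig1 read 158 and 46.4 FPKM in wild type and 127 and 38.5 in the knockout and was called lower, while Insig2 read 57.6 and 143 FPKM in wild type and 50.5 and 130 in the knockout and was called higher, each in both genotypes in the authors' deposited table. The escort protein Scap was not called in either genotype (log2 -0.31 and -0.32 in the authors' deposited table).

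The CREB3 family ranged from the largest response of the set to none that passed the test. Creb3l2 (chr6:37277213-37392260, mm9) encodes BBF2H7, a factor best known from cartilage, where it turns on secretory pathway genes. It read 6.46 FPKM after DMSO and 47.1 after tunicamycin in wild type, and 5.35 and 37.6 in the knockout. Both genotypes moved from single digits to well above any DMSO value. This was 7.29-fold in wild type (log2 2.87, 95% interval 2.45 to 3.28, q 0.000396) and 7.02-fold in the knockout (log2 2.81, 2.38 to 3.24, q 0.000396) in the authors' deposited table.

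Among the 8 sensor genes with a promoter entry, Creb3l2 was the only one with the core of the cAMP response element (TGACGT, which the TGACGTGG element contains). That core stands in 8.37% of all promoters, 4 of the 17 XBP1 targets and 1 of the 10 ATF6 targets with an entry. The promoter stretch around it is shown because Creb3l2 had the widest response of the set, at chr6:37442289-37442394 on the minus strand of GRCm38.p6. The core is in capitals and starts 196 bases upstream of the gene start.
Creb3l2 promoter: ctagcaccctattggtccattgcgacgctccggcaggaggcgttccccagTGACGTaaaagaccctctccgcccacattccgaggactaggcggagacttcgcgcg
A match of letters is a description and does not show binding of a factor.

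Creb3 (chr4:43575505-43600359, mm9) encodes Luman, a widely expressed member known for its link to Golgi stress. It read 29.1 and 56.6 FPKM in wild type with DMSO and tunicamycin, and 27.6 and 53.6 in the knockout. The step was nearly the same size in both genotypes, but only that in wild type passed the test. The log2 change in the authors' deposited table was 0.96 in wild type (derived SE 0.34, q 0.0288) and 0.96 in the knockout (derived SE 0.37, q 0.0574). With q computed within the comparison the knockout value was 0.0438. The difference between both responses was -0.01 (95% interval -0.99 to 0.98). The same mapped interval also holds the loci of Rgp1, Gba2 and Msmp, none of which was called with tunicamycin in either genotype. How the counting divided fragments among overlapping genes was not given in the sources used here, so the Creb3 value is uncertain. Rgp1 read 12.7 to 15.7 FPKM over the 4 groups, Gba2 went from 5.37 to 2.49 FPKM in wild type, and Msmp stayed under 3 FPKM at 0.190 to 2.29.

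Creb3l3 (chr10:80547077-80561617, mm9) encodes CREBH, the member that is made mainly in liver and small intestine. It read 175 FPKM after DMSO and 148 after tunicamycin in wild type, and 147 and 139 in the knockout. The 4 values differ little, and the highest is that of unstressed wild type. In the authors' deposited table the log2 change with tunicamycin was -0.24 in wild type (95% interval -0.65 to 0.16, q 0.455) and -0.09 in the knockout (-0.49 to 0.31, q 0.835).

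Creb3l1 (chr2:91822484-91864327, mm9) encodes OASIS, a member known from bone and astrocytes. It stayed under 1 FPKM in every group, at 0.671 and 0.802 in wild type with DMSO and tunicamycin and 0.955 and 0.775 in the knockout. By the authors' deposited table its log2 change was 0.26 in wild type (95% interval -0.59 to 1.11) and -0.30 in the knockout (-1.12 to 0.51). The intervals include a 2-fold rise in wild type and a 2-fold fall in the knockout, so changes of that size are not excluded.

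Partners and targets of CREB3, CREB3L1 and CREB3L2 were called higher with tunicamycin in 4 of 5 tested genes in wild type. In the knockout 2 were higher and 1 lower by the authors' deposited table, with median log2 changes of 0.69 and 0.47. Over all loci 18.1% were higher in both genotypes and 14.8% lower in the knockout, so the 1 lower is near that background. Arf4, a Golgi GTPase known as a CREB3 target, read 84.3 FPKM after DMSO and 233 after tunicamycin in wild type, and 73.6 and 228 in the knockout. Sec23a, a COPII coat subunit known as a CREB3L2 target, read 37.8 and 87.1 FPKM in wild type and 35.2 and 70.8 in the knockout. Both were called higher in both genotypes in the authors' deposited table. Crebzf and Hcfc1, the genes of a pair of proteins that bind CREB3, rose in wild type by 0.56 and 0.69 on the log2 scale in the authors' deposited table. Their log2 values in the knockout were 0.36 (q 0.224) and 0.47 (q 0.0614) in the authors' deposited table, and no test of the difference passed (adjusted p 1.00 for each). Col1a1, a collagen gene known as a CREB3L1 target, read 3.56 and 4.66 FPKM in wild type and 6.24 and 4.09 in the knockout. It was higher in the knockout with DMSO (log2 0.81) and lower with tunicamycin in the knockout (log2 -0.61) in the authors' deposited table, and both calls use the knockout DMSO group of lane 5, in which 5 of 5 endothelial markers were also higher. Creb3l4 was near 0 FPKM and not tested.

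Known targets of CREB3L3 did not move as a block. Of 10, 4 were higher and 5 lower with tunicamycin in wild type, and 4 were higher and 6 lower in the knockout, by the authors' deposited table. All-locus shares were 18.1% higher in both genotypes, with 19% lower in wild type and 14.8% lower in the knockout. Their median log2 change was -0.81 in wild type and -0.95 in the knockout. The acute-phase gene Apcs, which encodes serum amyloid P, read 145 FPKM after DMSO and 470 after tunicamycin in wild type, and 101 and 235 in the knockout. Fgf21, a liver hormone that is also an ATF4 target, read 0.840 and 24.0 FPKM in wild type and 0.250 and 7.21 in the knockout. Cidec, a lipid droplet protein, read 2.05 and 8.31 FPKM in wild type and 2.29 and 27.4 in the knockout. These 3 were called higher with tunicamycin in both genotypes. The iron gene Hamp, in a locus merged with Hamp2, was also higher in both (log2 1.70 and 2.37 in the authors' deposited table). Crp, another acute-phase gene, was instead lower in both (log2 -1.66 and -1.73 in the authors' deposited table). Genes of triglyceride and glucose metabolism were also among those that fell. Apoa5, an activator of lipoprotein lipase, read 841 and 153 FPKM in wild type and 579 and 154 in the knockout. The lipoprotein lipase cofactor Apoc2 read 417 and 125 FPKM in wild type and 273 and 104 in the knockout. Pck1, an enzyme of gluconeogenesis, read 1782 and 144 FPKM in wild type and 1548 and 147 in the knockout. All 3 were called lower in both genotypes in the authors' deposited table. G6pc, another gene of glucose metabolism, was called lower in the knockout (log2 -1.04) and not in wild type (log2 -0.21, q 0.554) in the authors' deposited table.

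The CREB3L3 targets also held calls between genotypes. Under tunicamycin 2 of 10 were higher and 4 lower in the knockout, where 3.73% of all loci were higher and 2.19% lower, in the authors' deposited table. Among them were Cidec (log2 1.72), Apcs (235 against 470 FPKM) and Fgf21 (log2 -1.74 in the authors' deposited table). Fgf21 was below wild type by a like amount with DMSO, at 0.250 against 0.840 FPKM. That difference was not called (log2 -1.75, q 0.0764 in the authors' deposited table). Its tunicamycin responses differed between genotypes by 0.01 on the log2 scale (derived SE 0.73). With DMSO, where 2.86% of all loci were called, 4 of 10 were lower in the knockout, among them Apcs (log2 -0.53, q 0.0344) and Apoc2 (log2 -0.61, q 0.0149) in the authors' deposited table, and none of the 4 passed with q computed within that comparison. Cidec is also a gene of fat cells, and fat markers summed to 236 FPKM in the knockout with tunicamycin against 16.8 to 25.8 in the other groups. The part of fat tissue in the Cidec value was not tested. Creb3l3 itself was not called between genotypes in either treatment.

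Without tunicamycin none of the 10 sensor genes was called between knockout and wild type. Over all loci 2.86% were called in this comparison in the authors' deposited table, and 1 of the 10 had an unadjusted p under 0.05. That gene was Atf6 (log2 -0.38, p 0.0494, q 0.150 in the authors' deposited table). The log2 differences ran from -0.38 to 0.51 with a median of -0.20, against -0.07 over all loci tested. As deposited 9 of 10 values lay below 0, but 3 of 10 when each group was scaled to its summed FPKM, which moved every locus by 0.25. Lane and genotype cannot be told apart here. Among the lists, Dnajb9 was the XBP1 target called lower (log2 -0.89, q 0.000396 in the authors' deposited table).

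Under tunicamycin Ern1 was the single sensor gene called between genotypes, and all libraries of this comparison share lane 4. The knockout group of this comparison had far higher summed markers of other tissues. Skeletal muscle markers summed to 221 against 3.13 FPKM in wild type, adrenal cortex markers to 844 against 22.3 and fat markers to 236 against 24.5. The part of these tissues in the values of the sensor genes was not tested. Over all loci 3.73% were called higher and 2.19% lower in the knockout in the authors' deposited table. Ern1 read 41.0 FPKM in the knockout against 61.8 in wild type, a ratio of 0.663 (log2 -0.59, 95% interval -1.03 to -0.15, q 0.0326 in the authors' deposited table). The call ended when q was computed within this comparison (q 0.146). Atf6 had a difference of nearly the same size, 64.9 against 94.7 FPKM, and was not called (log2 -0.55, 95% interval -0.98 to -0.11, q 0.0607 in the authors' deposited table). For Creb3l2 the values were 37.6 and 47.1 FPKM (log2 -0.33, q 0.293 in the authors' deposited table). The other 7 genes lay between -0.16 and -0.05 on the log2 scale. As deposited all 10 values lay below 0, but 8 after centring on the median locus and 5 after scaling to summed FPKM, so their common sign depends on the scaling. Of the XBP1 and ATF6 targets, none was called between genotypes under tunicamycin, with medians of -0.14 and -0.37 against -0.04 over all loci tested.

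**Figure D4:**
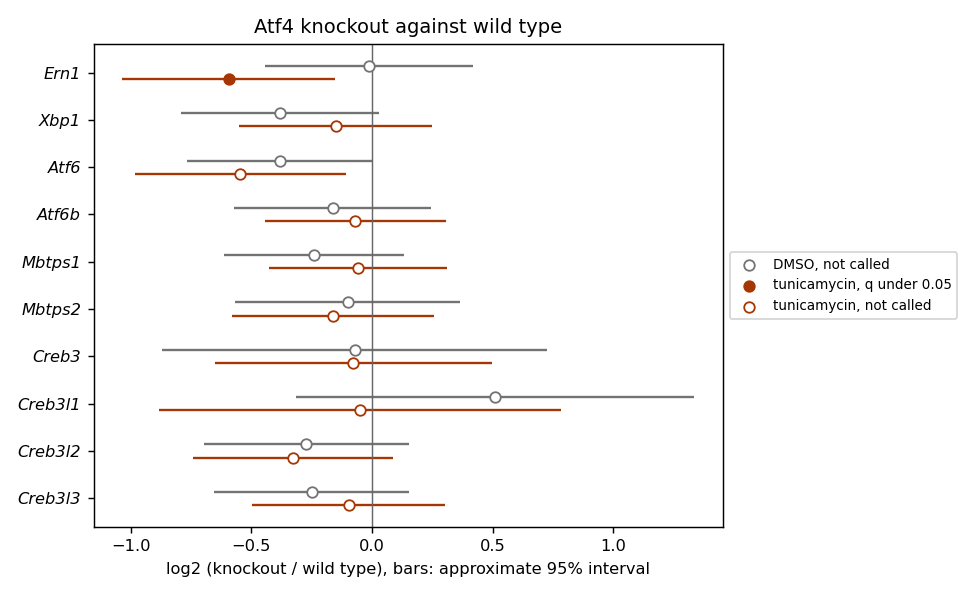
Log2 ratio of knockout over wild type with DMSO (grey) and with tunicamycin (brown) for each gene, with bars for approximate 95% intervals and a filled point for the 1 call. With tunicamycin Ern1 and Atf6 lie lowest at -0.59 and -0.55, and the tunicamycin bars of the other 8 genes cross 0.

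The tunicamycin responses of the knockout and of wild type were compared directly by a z test on both log2 changes with derived SE. This test is a normal approximation, since no exact test can be made from pooled values. None of the 10 genes passed after adjustment over 14510 loci, of which 1.01% did, and none had an unadjusted p under 0.05. The median difference was -0.03 against 0.04 over all loci. For Ern1 the response in the knockout was 0.58 smaller on the log2 scale (difference -0.58, derived SE 0.32, 95% interval -1.20 to 0.04, adjusted p 1.00). For Atf6 the difference was -0.16 (95% interval -0.75 to 0.42), and for Creb3l2 -0.05 (-0.65 to 0.54). A difference of the size measured for Ern1 lies within all 3 intervals, so the test does not show that both genotypes respond alike. Lane enters this comparison through the knockout DMSO group.

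FPKM is scaled to transcript length, so levels can be ordered between genes. In wild type with DMSO the order from the highest was Creb3l3, Xbp1, Creb3, Mbtps1, Atf6, Ern1, Atf6b, Creb3l2, Mbtps2 and Creb3l1. With tunicamycin it was Xbp1, Creb3l3, Atf6, Ern1, Creb3, Creb3l2, Atf6b, Mbtps1, Mbtps2 and Creb3l1. Atf6 thus moved from the fifth to the third place and Creb3l2 from the eighth to the sixth, past Mbtps1 and Atf6b. Whether neighbours in this order differ cannot be tested without values per library, and Creb3l3 and Xbp1 (175 and 163 FPKM) or Ern1 and Creb3 with tunicamycin (61.8 and 56.6 FPKM) are close. In the knockout with tunicamycin Creb3 (53.6 FPKM) stood above Ern1 (41.0 FPKM), the reverse of wild type, and this was not tested. The place of Creb3 is uncertain, since its interval also holds other loci, and that of Mbtps2 includes Yy2.

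Genes with the most similar profile over the 4 groups were ranked by the distance between centred log2(FPKM + 1) values among 9961 loci with 1 gene name and at least 1 FPKM in all groups. With only 4 pooled values per gene this is a description of likeness. Nearest to Ern1 were Nek1 (distance 0.0542), Kctd15 and Ell2. Ell2, a transcription elongation factor, read 27.4 FPKM after DMSO and 99.5 after tunicamycin in wild type, and 27.7 and 63.5 in the knockout. Nek1, Kctd15 and Ell2 shared with Ern1 close DMSO values and a lower tunicamycin value in the knockout. This follows from choosing the nearest loci and is no test of the Ern1 difference. Nearest to Atf6 were Mvd (0.110), B3galt1 and Dhx40, and nearest to Creb3l2 were Nol8 (0.118), Ung and Cdk2ap2, all farther away than the nearest loci of the other genes. Nearest to Atf6b was Dnttip2 (0.0205), to Mbtps2 Pus3 (0.00822) and to Creb3 Ddx24 (0.0161). For the genes that were not called with tunicamycin, the nearest were Tomm70a to Xbp1, Pak1ip1 to Mbtps1 and Dazap2 to Creb3l3. Creb3l1 was left out because it stayed under 1 FPKM.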

How the data were processed

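The submitters' processing notes name bcl2fastq, TopHat2 2.0.4, Cufflinks, Cuffdiff and the mouse build mm9. How the authors scaled libraries to each other, and with which annotation, was not given in the sources used here. ERCC spike-in RNA was added before poly(A) selection, per the labels' protocols. Per the file headers, the deposited table holds 1 pooled FPKM per locus and group and, for each of 6 comparisons, a fold change on the log2 scale with its test statistic (a score), p-value and q-value. The authors' q-values are those of Benjamini and Hochberg taken jointly over the 90828 tests of the 6 comparisons (largest gap 5.29e-07).

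Groups came from the labels, and 4 comparisons were used. Each took the authors' deposited Cuffdiff test; comparisons that share a group are not independent. The SE of a deposited log2 fold change was derived as its size divided by its test statistic, times a factor of 0.575 to 0.578 per comparison that matched the deposited p-values between 0.001 and 0.5. The z test of the response difference used these SE with Benjamini-Hochberg adjustment over 14510 loci and was tested on simulated data. The simulated noise was normal and drawn with the same derived SE, so it cannot show whether these SE fit the real libraries. Named from each list were up to 5 called genes by the size of the wild-type response and up to 3 by the difference under tunicamycin, with 5 FPKM or more in the higher group, and a few others were named after their values were seen. The values of 1 gene counted in the RIDD list are not reported here. Members and lists were chosen with earlier results of these data known. Alternatives were q within a comparison, q under 0.01, at least 2-fold change, at least 1 FPKM, loci with 1 gene name, 2 other scalings and log2(FPKM + 1). Software was Python 3.11.15, pandas 2.3.3, numpy 2.4.6, matplotlib 3.10.9 and scipy 1.17.1. Promoter sequences are from RefSeq (GRCm38.p6) and the Xbp1 transcript from GENCODE M21 (GRCm38).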

Additional observations from a re-analysis of the deposited data

Results flagged for a closer look

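The CREB3L3 target Cidec had a tunicamycin response that differed between genotypes by the z test. Its log2 response was larger in the knockout by 1.56 (derived SE 0.44, adjusted p 0.0398 over 14510 loci), from pooled values of 2.05 and 8.31 FPKM in wild type and 2.29 and 27.4 FPKM in the knockout. The knockout DMSO group that enters this difference was sequenced on another lane. Fat markers summed to 16.8 and 24.5 FPKM in wild type and 25.8 and 236 FPKM in the knockout, with DMSO and tunicamycin. Their part in the Cidec value was not tested.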

How the results depend on the processing

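The count of sensor genes called changed by over 1.5 times in 3 of 20 alternatives. Under tunicamycin the 1 gene lower in the knockout, Ern1, became 0 with q computed within the comparison, with q under 0.01 and with at least 2-fold change, since its ratio is under that size. With q computed within the comparison, the RIDD substrates higher in the knockout with DMSO went from 1 to 0, and the CREB3L3 targets lower there from 4 to 0. These q differ from the deposited ones by construction, since the authors' adjustment runs jointly over 6 comparisons. The other 110 of 112 list counts stayed within that range. The log2 change of a sensor gene moved by over 1 derived SE in 16 of 120 cases, all with scaling to summed FPKM, and no called change reversed. With log2(FPKM + 1) the response difference moved by under 1 derived SE in 10 of 10 genes, for Creb3l1 from -0.56 to -0.25. The z test called it for none of 9 genes over 11393 loci with at least 1 FPKM, where 84 loci passed. It was called for none of the 5 genes that could be tested over 11246 loci with the SE from the deposited p alone, where 9 loci passed. Ern1, Atf6 and Creb3l2 had the smallest deposited Cuffdiff p (5e-05) with tunicamycin in both genotypes. No SE can be read from p at that floor, so this alternative does not bear on these genes. Values are pooled by group, so no replicate could be left out. No paired analysis was possible because the values are pooled by group. Loci with very many fragments, Hspa5 and Hsp90b1 among them, have no estimate with tunicamycin.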
